A study of Mus musculus with 9 samples.

Results

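Hepatokines are proteins that the liver releases into the blood or onto neighboring cells. The 9 hepatokine genes described here are Inhba, Inhbb, Inhbc, Inhbe, Fst, Fgf21, Gdf15, Angptl4 and Angptl6. They were taken by symbol from the deposited table of 55401 genes, and all 9 were among the 15717 genes with enough counts to be tested. RNA of whole liver was sequenced from 9 female mice in 3 groups of 3. The sample records of all 3 groups give mice obtained at 6 weeks of age. Healthy livers came from mice that received neither plasmids nor virus, and their age at harvest is not given. For the other groups, mice were injected hydrodynamically, a fast tail vein injection that brings DNA into hepatocytes. The sleeping beauty transposon plasmids were pT3-EF1α-HA-myr-AKT and pT/Caggs-Nras-v12, which encode activated AKT and NRAS from the EF1α and CAGGS promoters, with the transposase plasmid pCMV-SB11. The sample records also list pT3-EF1α-N90-β-catenin, while the study's methods name RAS and AKT for the sequenced tumors. After 1 week these mice received the liver-tropic virus AAV8, either blank (untreated HCC, hepatocellular carcinoma) or carrying miR-22 behind a CMV promoter in a vector with GFP (miR-22-treated HCC). The livers were taken 5 weeks after the oncogenes, 4 weeks after the virus. Among the livers used here no oncogene-free group received AAV8, so tumor and virus cannot be told apart in comparisons with healthy liver. The sample records name the strain as FVB/N in one field and C57BL/6 in another, and the study's methods give FVB/N. The livers carry the numbers 1, 2 and 3 in healthy liver and 2, 3 and 4 in both HCC groups, as in the labels.

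The activins are dimers of the beta subunits encoded by Inhba (βA), Inhbb (βB), Inhbc (βC) and Inhbe (βE), members of the TGF-β family. Activins A and B signal through the type II receptors ACVR2A and ACVR2B to SMAD2 and SMAD3, and follistatin (Fst) binds them and blocks signaling. FGF21 is a hormone of fasting and amino acid shortage that acts through FGFR1 with its co-receptor β-Klotho (Klb), and GDF15 is a stress hormone that acts on hindbrain neurons through GFRAL and RET. ANGPTL4 inhibits lipoprotein lipase and is a target of PPARα, and ANGPTL6 is a circulating angiopoietin-like factor of hepatocytes. A level below is a normalized CPM, the read count of a gene scaled to its library with TMM normalization. A gene was called when its fold change was over 1.5 with an adjusted p under 0.05, by edgeR's quasi-likelihood test and Benjamini-Hochberg adjustment over all 15717 genes, and every adjusted p below is from this test.

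In GRCm39 with GENCODE annotation, the genes of the activin subunits and follistatin lie at chr13:16186373-16206206 (Inhba, plus strand), chr1:119343193-119350021 (Inhbb, minus), chr10:127190888-127206430 (Inhbc, minus), chr10:127184726-127190280 (Inhbe, minus) and chr13:114588731-114595521 (Fst, minus). Fgf21 lies at chr7:45263301-45266963, Gdf15 at chr8:71082038-71091537, Angptl4 at chr17:33992724-34000804 and Angptl6 at chr9:20785103-20791064, all on the minus strand. Counts are Salmon estimates per transcript that the authors summed per gene, so isoforms are not separated in them.

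The treatment is the microRNA itself, and its sequence is shown because its seed, bases 2 to 8 in capitals, is what a target transcript would match. The mature sequence is from RefSeq (GRCm38.p6, chr11:75463772-75463793, plus strand).
mmu-miR-22-3p: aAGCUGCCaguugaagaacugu
The reverse complement of the seed, GGCAGCT, was present in the canonical 3′ UTR of 0 of the 9 hepatokine genes and of 14.1% of 20693 genes with a 3′ UTR. With 9 genes, a count of 0 does not set the members apart from that share. The 3′ UTRs searched ranged from 75 bases in Angptl6 to 4492 bases in Inhba, with 143 in Fgf21 and 155 in Gdf15. The median over all these genes was 1087 bases. Other forms of seed match were not searched, and whether a member is a target was not tested.

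Total counts per library ranged between 18258660 and 20964551 for healthy liver, between 18293676 and 23908392 for untreated HCC, and between 16664659 and 20459853 after miR-22. The median log2 fold change over all tested genes was 0.01 in untreated HCC against healthy liver, 0.002 in miR-22-treated against untreated HCC and 0.02 in miR-22-treated HCC against healthy liver. Akt1 was at 105 ± 2.96 (SD, n = 3) normalized CPM in healthy liver, 1486 ± 275 in untreated HCC and 858 ± 223 in miR-22-treated HCC, and Nras at 28.6 ± 1.51, 69.9 ± 7.02 and 54.6 ± 1.09. Both oncogenes thus followed the labels. Whole tissue was measured, so for every gene fewer cells of a type and less RNA per cell cannot be told apart. The study reports a lower liver-to-body weight ratio with miR-22 than in untreated HCC, with histology as further evidence of the treatment. The share of tumor tissue and a change per cell therefore cannot be told apart between the HCC groups. The hepatocyte markers Alb, Cps1 and others summed to between 135580 and 140710 normalized CPM in healthy liver, 52299 and 66689 in untreated HCC, and 81232 and 102370 in miR-22-treated HCC, with 9 of 10 called lower in untreated HCC. Cholangiocyte markers summed to between 49.4 and 61.4 in healthy liver, 3371 and 6304 in untreated HCC, and 1589 and 2741 in miR-22-treated HCC. Of these 8 markers, 6 were called higher in untreated HCC against healthy liver. Spp1 held most of the sum in both HCC groups, and the defining marker Krt19 was at 2.15 ± 0.967, 3.96 ± 1.77 and 3.86 ± 2.54 in the 3 groups and was not called. Stellate cell and fibroblast markers summed to between 441 and 523, 1010 and 1186, and 845 and 968 normalized CPM, and in untreated HCC against healthy liver 6 of 11 were called higher and 3 lower. Neutrophil markers summed to between 1.76 and 4.59, 17.9 and 23.0, and 17.0 and 25.7, with 4 of the 4 tested called higher in untreated HCC. The other markers of this list, Ly6g, Mpo, Elane and Retnlg, had too few counts to be tested, with Ly6g at no more than 3 in any library. The summed macrophage, T and NK cell, and B and plasma cell markers overlapped between healthy liver and untreated HCC, except for T and NK cell markers at 5.71 to 7.36 against 7.77 to 9.09, and endothelial markers were at 444 to 543 against 279 to 358. The part of these shifts in the hepatokine values was not tested.

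In untreated HCC against healthy liver, 6 hepatokine genes rose (Inhba, Inhbb, Inhbe, Fst, Fgf21 and Gdf15), 2 fell (Angptl4 and Angptl6), and Inhbc did not pass. Of all tested genes, 22.7% were called higher and 18.1% lower in this comparison. The livers of both groups did not overlap for 8 of the 9 members, a pattern found for 65.3% of all tested genes. In miR-22-treated against untreated HCC, Angptl4 rose, Inhba and Inhbb fell, and the other 6 did not pass, against 8.32% of all tested genes called higher and 5.47% lower. The groups were apart for 4 of the 9, Angptl6 being the fourth, and for 39.3% of all tested genes. In miR-22-treated HCC against healthy liver, 7 members were higher, Angptl6 was lower and Inhbc did not pass, against 16.9% of all tested genes called higher and 7.05% lower. There, 8 of the 9 members did not overlap, as did 48.8% of all tested genes. The median log2 fold change of the 9 members was 1.10, -0.15 and 0.96 in these 3 comparisons. The comparisons share groups, so they are not independent of each other. The same shares of all tested genes are the reference for the edgeR call counts of every gene list in this report.

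**Figure D1:**
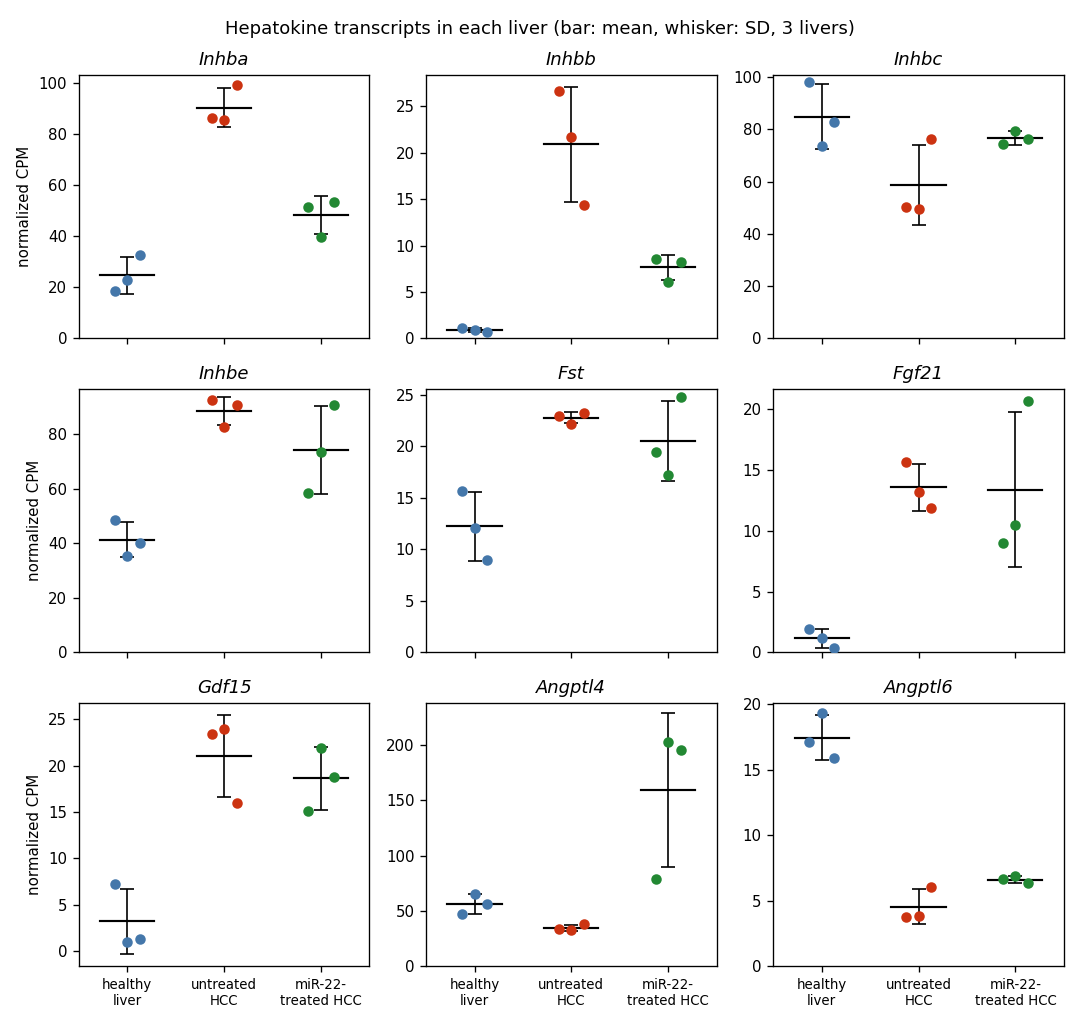
Normalized CPM (vertical axis, linear, scaled per panel) of each hepatokine gene in the livers of each group (horizontal axis), 1 point per liver in the order of its number, with the mean as a bar and the SD as a whisker. Inhba and Inhbb are highest in untreated HCC and lie between the other groups in miR-22-treated HCC, Fgf21 and Gdf15 are high in both HCC groups, and Angptl4 is highest in miR-22-treated HCC.

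Inhbb had the largest log2 fold change of the 9 members in untreated HCC. It encodes the βB subunit of activin B. Its level was 1.13, 0.945 and 0.714 normalized CPM in healthy livers 1, 2 and 3, from 18, 15 and 13 counts. It was 26.6, 21.7 and 14.3 in untreated HCC livers 2, 3 and 4, and 8.58, 6.12 and 8.28 in miR-22-treated HCC livers 2, 3 and 4. No liver of one group reached the range of another. The rise in untreated HCC was 22.4-fold (log2 4.49 ± 0.28 SE, adjusted p = 9.77e-08, 95% confidence interval of the fold 14.6 to 34.4). In miR-22-treated against untreated HCC the level was 2.71-fold lower (log2 -1.44 ± 0.22, adjusted p = 9.02e-04). It was still 8.27-fold above healthy liver (log2 3.05 ± 0.29, adjusted p = 8.45e-06).

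Inhba, which encodes the βA subunit of activin A, had the same order of groups at a higher count. Its level was 18.7, 22.8 and 32.8 normalized CPM in the healthy livers, 86.4, 85.7 and 99.3 in the untreated HCC livers, and 51.6, 39.9 and 53.6 in the miR-22-treated HCC livers. The 3 groups did not overlap. The rise in untreated HCC was 3.65-fold (log2 1.87 ± 0.18, adjusted p = 2.21e-06). With miR-22 the level was 1.87-fold lower than in untreated HCC (log2 -0.90 ± 0.17, adjusted p = 0.00284) and 1.95-fold above healthy liver (log2 0.96 ± 0.18, adjusted p = 0.0011).

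Inhbe and Inhbc encode the βE and βC subunits, which are made mainly by the liver. The genes are neighbors on chromosome 10, with 607 bases between them. Inhbe was at 48.4, 35.5 and 40.2 normalized CPM in the healthy livers and 92.4, 82.7 and 90.6 in the untreated HCC livers, without overlap. It rose 2.14-fold (log2 1.10 ± 0.15, adjusted p = 4.54e-05). In the miR-22-treated HCC livers it was at 58.5, 73.5 and 90.6, all above healthy liver (log2 0.84 ± 0.15, adjusted p = 9.05e-04), and liver 4 lay within the range of untreated HCC. The difference from untreated HCC did not pass (log2 -0.25, 95% confidence interval -0.57 to 0.06, adjusted p = 0.235).

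Inhbc was the only member called in none of the 3 comparisons. It was at 98.2, 73.5 and 82.9 normalized CPM in the healthy livers and 50.3, 49.7 and 76.3 in the untreated HCC livers, where liver 4 overlapped healthy liver. The difference had an adjusted p of 0.011, but its fold of 1.44 (log2 -0.53 ± 0.15) was under the fold threshold. Without untreated HCC liver 4 the log2 fold change was -0.76 (adjusted p = 1.9e-04), and without healthy liver 2 it was -0.63 (adjusted p = 0.00966), so that the gene was then called lower. In the miR-22-treated HCC livers it was at 74.4, 79.5 and 76.2, with differences that did not pass against untreated HCC (log2 0.38, 95% confidence interval 0.05 to 0.72, adjusted p = 0.0943) or healthy liver (log2 -0.15, -0.48 to 0.19, adjusted p = 0.492). Without untreated HCC liver 4 the first of these was 0.62 and passed (adjusted p = 0.00332). Of the stretches of 31 bases in the Inhbc transcript, 28.6% also occur in transcripts of Gm47200 or Gm66251 on the other strand, and the libraries do not keep strand. Gm47200, with 268 exonic bases in common with Inhbc, held 2 to 17 counts per library, at most 1.13% of the Inhbc count. Gm66251 has the larger overlap of 720 exonic bases. It was not found under that name among the counted genes, so its counts are not known. Gm66251 also overlaps Inhbe, over 204 exonic bases, with the same limit.

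Fst, the follistatin gene, was at 15.7, 12.0 and 8.96 normalized CPM in the healthy livers, 22.9, 22.2 and 23.2 in the untreated HCC livers, and 19.4, 17.2 and 24.8 in the miR-22-treated HCC livers. Both HCC groups were above every healthy liver and overlapped each other. The rise was 1.87-fold in untreated HCC (log2 0.90 ± 0.18, adjusted p = 0.001). In miR-22-treated HCC it was 1.69-fold above healthy liver (log2 0.75 ± 0.18, adjusted p = 0.00664), a call that was lost on the fold threshold without healthy liver 3 (log2 0.55, adjusted p = 0.0297). The difference between the HCC groups did not pass (log2 -0.15, 95% confidence interval -0.53 to 0.23, adjusted p = 0.592). The antisense gene Gm47040 held 10 to 49 counts per library, up to 19.7% of the Fst count, and its reads cannot be told apart by strand where both overlap over 115 exonic bases.

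Among the other genes of activin binding, Fstl3, a relative of follistatin that also neutralizes activins, had 5, 3 and 0 counts in the healthy livers, 82, 109 and 67 in the untreated HCC livers, and 14, 15 and 45 in the miR-22-treated HCC livers. It rose in untreated HCC (log2 4.48 ± 0.64, adjusted p = 6.34e-05) and was lower with miR-22 (log2 -1.49 ± 0.46, adjusted p = 0.0341). Tgfbr3, betaglycan, fell in untreated HCC (log2 -1.30 ± 0.15, adjusted p = 1.33e-05), and Htra1, a secreted protease, was higher in miR-22-treated HCC than in healthy liver (log2 1.33 ± 0.20, adjusted p = 3.13e-04). Of the 6 antagonists and partners tested, 4 rose and 2 fell in untreated HCC. Inha, which turns activins into inhibins, had 1 to 7 counts per library and was not tested.

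Of 9 activin receptors and SMADs tested, Smad3 rose in untreated HCC (log2 0.97 ± 0.15, adjusted p = 1.09e-04), and Acvr2b (log2 -1.04 ± 0.20, adjusted p = 7.87e-04) and the inhibitory Smad7 (log2 -0.67 ± 0.24, adjusted p = 0.0279) fell. Acvr2b was at 4.91 ± 0.224 normalized CPM in healthy liver, 2.37 ± 0.230 in untreated HCC and 4.04 ± 0.637 in miR-22-treated HCC, and was the single gene of the list called with miR-22 against untreated HCC (log2 0.77 ± 0.21, adjusted p = 0.0174). Acvr2a, the other type II receptor, was at 40.9 ± 4.08, 30.3 ± 2.97 and 36.4 ± 5.60 and was under the fold threshold in untreated HCC (log2 -0.43, adjusted p = 0.0103). Acvr1c had 0 to 5 counts per library and was not tested. No gene of the list was called in miR-22-treated HCC against healthy liver by edgeR or DESeq2, with 4 at an unadjusted p under 0.05 by edgeR.

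Other ligands of the TGF-β family split in both directions. In untreated HCC 6 of 13 rose and 5 fell, with a list median of 0.55 on the log2 scale. Bmp7 rose from 0.649 ± 0.296 to 15.9 ± 4.52 normalized CPM (log2 4.58 ± 0.35, adjusted p = 4.18e-07), Tgfb2 from 0.518 ± 0.418 to 12.0 ± 1.43 (log2 4.47 ± 0.38, adjusted p = 9.58e-07) and Tgfb3 from 1.36 ± 0.709 to 10.9 ± 1.60 (log2 2.98 ± 0.30, adjusted p = 3.93e-06). With miR-22 against untreated HCC, 4 were higher and 2 lower. Bmp2 (log2 1.08 ± 0.20, adjusted p = 0.00233) and Gdf2, which encodes BMP9 (log2 0.81 ± 0.15, adjusted p = 0.00281), were higher, and Bmp7 was lower (log2 -1.29 ± 0.26, adjusted p = 0.00439).

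**Figure D2:**
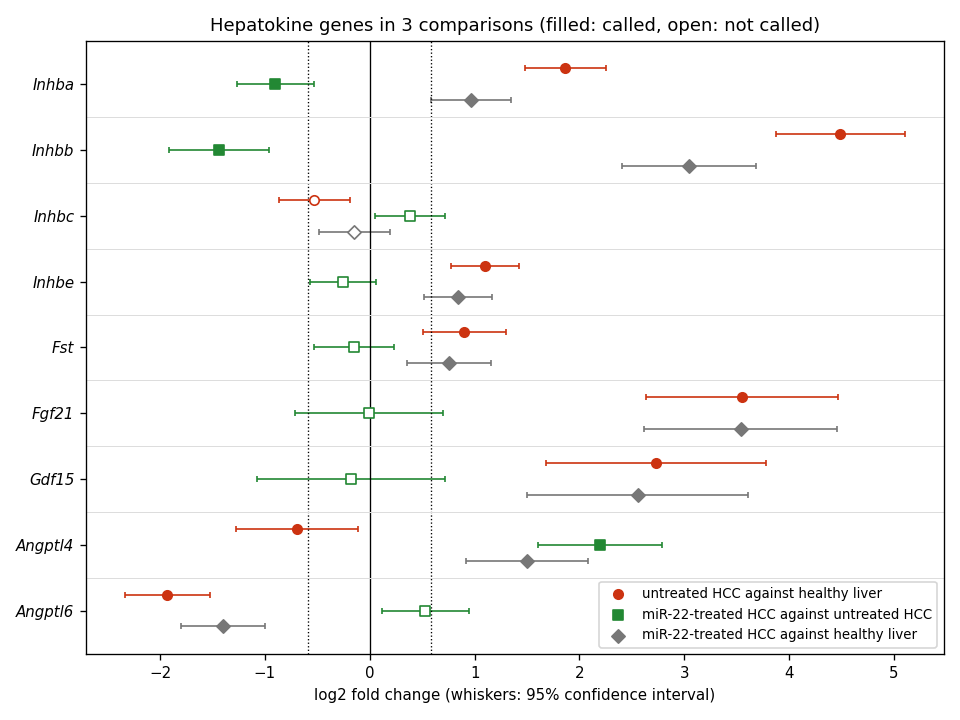
Log2 fold change (horizontal axis) of each hepatokine gene (vertical axis) in 3 comparisons, with 95% confidence intervals as whiskers, filled symbols for called genes, open symbols for genes not called, and dotted lines at a fold change of 1.5. In miR-22-treated against untreated HCC, Inhba and Inhbb lie on the left with filled symbols, Angptl4 on the right, and the interval of Fgf21 spans -0.72 to 0.70.

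Fgf21 was higher in both HCC groups than in healthy liver. It was at 1.95, 1.20 and 0.385 normalized CPM in the healthy livers, from 31, 19 and 7 counts. It was at 15.7, 13.2 and 11.9 in the untreated HCC livers and 8.98, 10.5 and 20.7 in the miR-22-treated HCC livers. Every HCC liver was above every healthy liver, and both HCC groups overlapped. The rise was 11.7-fold in untreated HCC (log2 3.55 ± 0.42, adjusted p = 1.44e-05) and 11.6-fold in miR-22-treated HCC (log2 3.54 ± 0.42, adjusted p = 4.78e-05) against healthy liver. Between the HCC groups the fold was 0.994 with a 95% confidence interval of 0.609 to 1.62 (adjusted p = 0.988), an interval that holds folds past the threshold in both directions. In the miR-22-treated HCC livers the SD was 47.5% of the mean, against 14.0% in untreated HCC, and liver 4 was the highest of all 9. Fut1 overlaps Fgf21 on the other strand over 245 exonic bases and held 1 to 33 counts per library, up to 15.8% of the Fgf21 count, and 0 of the 930 stretches of 31 bases in the canonical Fgf21 transcript occur in another gene.

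Gdf15 was at 7.29, 1.01 and 1.32 normalized CPM in the healthy livers, 23.4, 23.9 and 16.0 in the untreated HCC livers, and 15.2, 21.9 and 18.8 in the miR-22-treated HCC livers. Healthy liver 1 was far above the other healthy livers and still below every HCC liver. The rise was 6.64-fold in untreated HCC (log2 2.73 ± 0.48, adjusted p = 3.72e-04) and 5.88-fold in miR-22-treated HCC (log2 2.56 ± 0.49, adjusted p = 0.00146). Without healthy liver 1 these folds were 17.7 (adjusted p = 1.01e-06) and 15.7 (adjusted p = 4.26e-06). The difference between the HCC groups did not pass (log2 -0.18, 95% confidence interval -1.07 to 0.72, adjusted p = 0.797). The lncRNA Gm34154 lies on the other strand over 391 exonic bases and shares 12.5% of the 31-base stretches of Gdf15. It was not found under that name among the counted genes, so its counts are not known.

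FGF21 and GDF15 are known targets of the integrated stress response, in which ATF4, CHOP (Ddit3) and C/EBP proteins bind C/EBP-ATF response elements. The promoter letters are shown because Fgf21 and Inhbe, which both rose, hold the same match. RefSeq promoters (GRCm38.p6, 250 bases before to 50 after a start) were found for 7 of the 9 members, Gdf15 with 2, and not for Fst and Angptl4. The C/EBP-ATF response element was searched as TGATGNAA on both strands and matched in Fgf21, 139 bases before the start, and in Inhbe, 181 bases before the start, both as TTGCATCA. It did not match in the windows of Gdf15, Inhba, Inhbb, Inhbc or Angptl6. It matched in 3.97% of 32851 promoters. The E-box CACGTG, which carbohydrate-sensing and MYC-type factors can bind, matched in Fgf21 at 50 and in a Gdf15 promoter at 83 bases before the start, and in 7.15% of promoters. The core ACGTG, which is part of that E-box, also matched in Inhbe at 165 bases before the start and in 19.6% of promoters. The 250 upstream bases of these promoters are on the minus strand, Fgf21 at chr7:45615491-45615740, Inhbe at chr10:127351849-127352098 and Gdf15 at chr8:70632096-70632345, with matched letters in capitals.
Fgf21: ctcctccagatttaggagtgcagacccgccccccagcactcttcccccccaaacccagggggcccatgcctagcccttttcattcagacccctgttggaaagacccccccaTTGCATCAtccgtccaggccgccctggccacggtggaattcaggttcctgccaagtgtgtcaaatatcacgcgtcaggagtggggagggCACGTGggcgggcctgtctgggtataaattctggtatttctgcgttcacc
Inhbe: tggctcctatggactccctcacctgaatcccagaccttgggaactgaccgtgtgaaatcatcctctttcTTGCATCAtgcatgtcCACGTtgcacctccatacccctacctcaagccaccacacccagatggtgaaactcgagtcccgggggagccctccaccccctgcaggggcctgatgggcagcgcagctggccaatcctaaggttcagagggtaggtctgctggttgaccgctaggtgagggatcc
Gdf15: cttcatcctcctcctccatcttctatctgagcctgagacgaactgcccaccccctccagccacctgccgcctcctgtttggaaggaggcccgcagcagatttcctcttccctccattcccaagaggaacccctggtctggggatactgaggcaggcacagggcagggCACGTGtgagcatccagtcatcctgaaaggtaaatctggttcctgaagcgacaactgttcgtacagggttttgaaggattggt
The antioxidant response element TGACNNNGC, the cAMP response element TGACGTCA and a DR1 repeat matched in no member promoter and in 12.4%, 1.79% and 0.0396% of all promoters. These matches describe letters and not binding.

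The factors and targets of this response were uneven. Atf4 was at 85.0 ± 5.49 (SD, n = 3) normalized CPM in healthy liver, 81.4 ± 3.84 in untreated HCC and 78.1 ± 5.68 in miR-22-treated HCC, and passed in no comparison. These are RNA levels, and the amount and activity of ATF4 protein were not measured in these data. Ddit3 was at 9.03 ± 1.37, 13.6 ± 0.750 and 9.96 ± 2.99, was called in untreated HCC against healthy liver just past the fold threshold (log2 0.59 ± 0.20, adjusted p = 0.0221), and did not pass with miR-22 (log2 -0.44, adjusted p = 0.124). Atf3, a stress-induced factor of the same family as ATF4 that was chosen after its values were seen, was at 3.68 ± 0.0769, 15.1 ± 3.45 and 6.32 ± 2.48, rose in untreated HCC (log2 2.03 ± 0.24, adjusted p = 2.16e-05) and was lower with miR-22 (log2 -1.24 ± 0.24, adjusted p = 0.00324). Of 20 targets of the response, 12 rose and 1 fell in untreated HCC, with a median of 1.44 on the log2 scale that was the same with Slc7a11, at 0 counts in every healthy liver, set to its bound of at least 21.7-fold. The serine synthesis genes Phgdh (log2 6.65 ± 0.34, adjusted p = 2.52e-08) and Psat1 (log2 5.75 ± 0.29, adjusted p = 2.37e-08), and Ddit4, an mTORC1 inhibitor (log2 3.57 ± 0.21, adjusted p = 7.05e-08), had the smallest p-values. With miR-22 against untreated HCC, 3 targets were higher and 5 lower. Phgdh (log2 -1.02), Psat1 (log2 -0.97) and Ddit4 (log2 -0.76) were among the lower ones. The higher ones were Chac1, a glutathione-degrading enzyme (log2 1.48 ± 0.28, adjusted p = 0.00292), Cth, cystathionine γ-lyase (log2 1.31 ± 0.23, adjusted p = 0.00165), and Cebpb (log2 1.07 ± 0.16, adjusted p = 7.73e-04). Cth was also the target that fell in untreated HCC (log2 -2.36 ± 0.23, adjusted p = 2.86e-06). Fgf21 and Gdf15, which did not pass between the HCC groups, thus stood beside targets that passed in each direction.

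Of 17 transcription factors known to act on Fgf21 or Gdf15, 5 rose and 7 fell in untreated HCC, and 6 rose and 2 fell with miR-22 against untreated HCC by edgeR. By DESeq2, 4 rose and 7 fell in untreated HCC, and 4 rose and 3 fell with miR-22. Ppara, the fatty acid sensor of fasting, was at 199 ± 23.2, 52.8 ± 10.6 and 143 ± 25.3 normalized CPM in healthy liver, untreated HCC and miR-22-treated HCC. It fell in untreated HCC (log2 -1.92 ± 0.16, adjusted p = 8.29e-07) and was higher with miR-22 (log2 1.44 ± 0.16, adjusted p = 1.64e-04). Thrb, a thyroid hormone receptor (log2 -1.29 and then 0.83), Mlxipl, which encodes the carbohydrate sensor ChREBP (log2 -1.67 and 1.04), and the bile acid receptor Nr1h4 (log2 -0.91 and 0.60) were called in the same directions as Ppara in these comparisons, which share the untreated livers. Nfe2l2, which encodes NRF2 (log2 1.18 ± 0.13, adjusted p = 6.26e-06), and Trp53 (log2 1.23 ± 0.13, adjusted p = 7.32e-06) rose in untreated HCC, and in miR-22-treated HCC both were above healthy liver (log2 0.59 and 0.64). The value of 0.59 is close to the fold threshold. In miR-22-treated HCC against healthy liver, 3 factors of the list were called higher by edgeR and 2 by DESeq2, and 1 was called lower by each.

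The receptors of FGF21 were measured in the same livers. Klb was at 51.7, 62.8 and 52.8 normalized CPM in the healthy livers, 23.0, 25.7 and 30.0 in the untreated HCC livers, and 45.5, 33.5 and 26.5 in the miR-22-treated HCC livers. It fell 2.12-fold in untreated HCC (log2 -1.09 ± 0.17, adjusted p = 1.43e-04), and with miR-22 it did not pass against untreated HCC (log2 0.42, adjusted p = 0.0961). Fgfr1 rose from 3.70 ± 0.153 to 17.2 ± 5.21 (log2 2.21 ± 0.21, adjusted p = 1.9e-06) and was at 10.7 ± 1.09 with miR-22 (log2 -0.67 ± 0.19 against untreated HCC, adjusted p = 0.0204). Fgfr2 rose in untreated HCC (log2 0.91 ± 0.09, adjusted p = 2.93e-06), while Fgfr4, the main FGF receptor of hepatocytes, stayed under the fold threshold (73.8 ± 8.61 against 101 ± 12.9, log2 0.45, adjusted p = 0.00583). Fap, a protease that cleaves FGF21, had 2 to 3 counts in the healthy livers and 14 to 48 counts in the HCC livers, and was called higher in both HCC groups (adjusted p = 3.87e-04 and 0.003). Of these 6 receptors and partners tested, 3 rose and 1 fell in untreated HCC, and Fgfr1 alone was called, as lower, with miR-22 against untreated HCC. Gfral, the receptor of GDF15, had 0 counts in all 9 livers, and its co-receptor Ret had 0 to 15 counts and was not tested.

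Angptl4 was the member with the largest difference between the HCC groups. It was at 47.1, 64.8 and 56.5 normalized CPM in the healthy livers, 33.3, 32.9 and 38.0 in the untreated HCC livers, and 79.2, 203 and 195 in the miR-22-treated HCC livers. The 3 groups did not overlap, and miR-22-treated HCC liver 2 was well below livers 3 and 4. With miR-22 the level was 4.58-fold above untreated HCC (log2 2.20 ± 0.27, adjusted p = 3.1e-04, 95% confidence interval of the fold 3.04 to 6.92), at percentile 99.0 of the log2 fold changes of all tested genes. It was 2.83-fold above healthy liver (log2 1.5 ± 0.27, adjusted p = 9.2e-04). In untreated HCC it was 1.62-fold below healthy liver (log2 -0.69 ± 0.27, adjusted p = 0.0425). That call was lost with DESeq2 (adjusted p = 0.087), with upper-quartile normalization (adjusted p = 0.0554), with at least 10 counts required in every library (adjusted p = 0.0584) and without any one of healthy livers 2 and 3 and untreated HCC livers 2, 3 and 4 (adjusted p = 0.0567 to 0.136), while the direction stayed.

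Angptl6 was at 17.1, 19.3 and 15.9 normalized CPM in the healthy livers, 3.75, 3.81 and 6.09 in the untreated HCC livers, and 6.63, 6.89 and 6.33 in the miR-22-treated HCC livers. It fell 3.81-fold in untreated HCC (log2 -1.93 ± 0.19, adjusted p = 2.63e-06) and was 2.64-fold below healthy liver with miR-22 (log2 -1.40 ± 0.18, adjusted p = 1.02e-04). All miR-22-treated HCC livers were above all untreated ones, but this difference did not pass (log2 0.53, 95% confidence interval 0.11 to 0.94, adjusted p = 0.0633). It was called without untreated HCC liver 4, which was the highest of its group (log2 0.81, adjusted p = 0.00479). Shfl lies on the other strand over 266 exonic bases and held 569 to 1546 counts per library, against 80 to 307 for Angptl6, and 14.9% of the 31-base stretches of the Angptl6 transcript are shared with it. The Angptl6 values are therefore uncertain to the extent that reads of Shfl were assigned to it.

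Angptl8, an insulin-induced relative of Angptl4, was at 100 ± 58.4, 96.5 ± 10.9 and 58.2 ± 18.8 normalized CPM in healthy liver, untreated HCC and miR-22-treated HCC and passed in no comparison. Lpl itself, lipoprotein lipase, rose from 9.94 ± 2.29 to 69.0 ± 7.78 in untreated HCC (log2 2.80 ± 0.18, adjusted p = 1.25e-07) and was at 44.2 ± 9.57 with miR-22 (log2 -0.64 ± 0.16 against untreated HCC, adjusted p = 0.0137). In the lipoprotein lipase system as a whole, 1 of 13 genes rose and 6 fell in untreated HCC, and 5 rose and 1 fell with miR-22 against untreated HCC. Hepatic lipase (Lipc, log2 -1.87 and then 1.22) and the lipase activator Apoa5 (log2 -2.10 and then 1.48) were called in both comparisons.

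Among 22 targets of PPARα, 5 rose and 9 fell in untreated HCC, against 22.7% and 18.1% of all tested genes. With miR-22 against untreated HCC, 4 rose by edgeR (3 by DESeq2) and none fell by either tool. Of all tested genes, 8.32% rose and 5.47% fell there by edgeR. None of the targets was lower at an unadjusted p under 0.05 by edgeR, and the list median was 0.32 on the log2 scale. Fabp1 (log2 0.83 ± 0.18, adjusted p = 0.00618) and Creb3l3 (log2 0.59 ± 0.13, adjusted p = 0.00739) were among those higher with miR-22. Cd36, a fatty acid transporter, rose in untreated HCC (log2 2.73 ± 0.16, adjusted p = 6.45e-08) and was at 194 ± 35.4 and 190 ± 31.3 normalized CPM in the HCC groups. Angptl4, with 2.20, exceeded the log2 fold change of each of these 22 genes with miR-22. The miR-22-treated livers differed among themselves in these genes and in others. Liver 2, which had the lowest Angptl4 and Fgf21 of its group, was also the lowest for 19 of the 22 targets (86.4%), against 32.4% of all tested genes. Liver 4, which had the highest Fgf21, was the highest for 15 of 22 (68.2%), against 36.7% of all tested genes. Liver 4 was also the highest for 13 of 20 targets of the integrated stress response (65%) and for 8 of 8 cholangiocyte markers, whose sum was 1948, 1589 and 2741 normalized CPM in miR-22-treated livers 2, 3 and 4. The part of these markers in the values of liver 4 was not tested. Cyp4a14, an ω-hydroxylase chosen after its values were seen, was at 30.3, 35.7 and 217 normalized CPM in miR-22-treated livers 2, 3 and 4, and Pdk4, a fasting kinase chosen in the same way, at 12.8, 11.5 and 45.6. These counts of livers are a description, made after the values were seen.

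**Figure D3:**
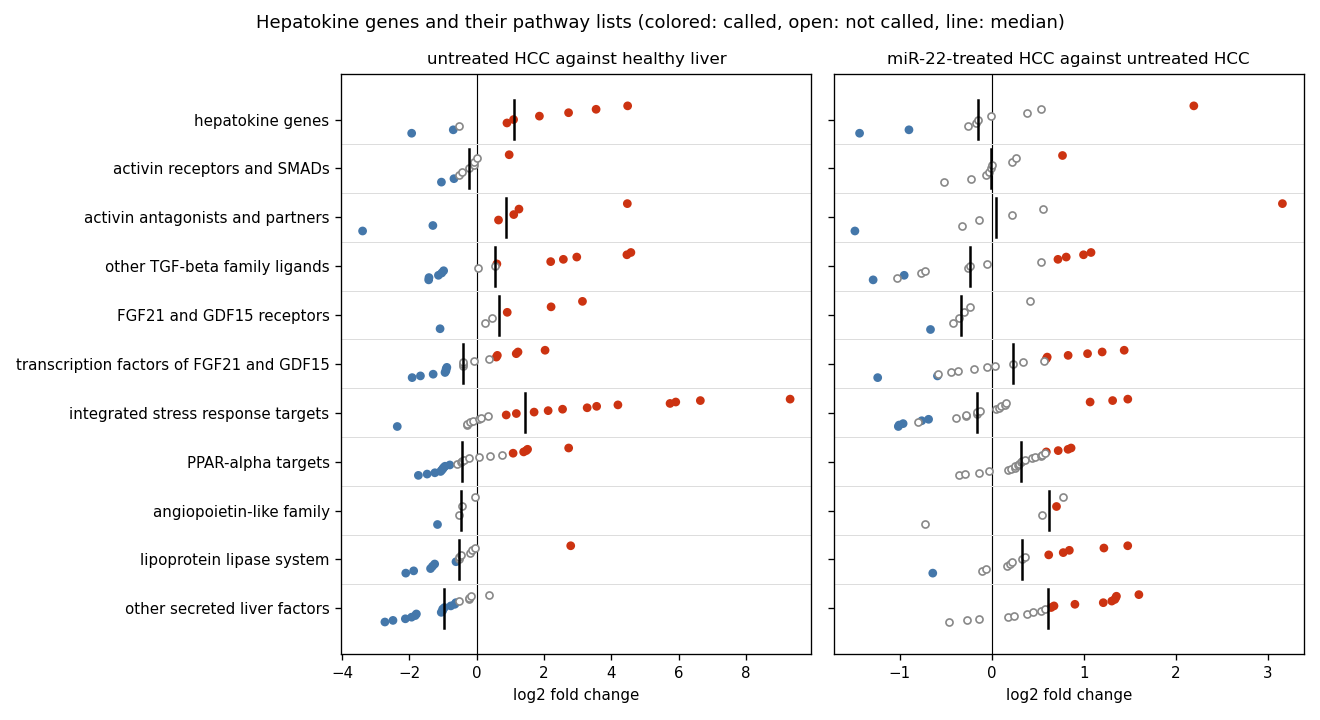
Log2 fold change (horizontal axis) of the hepatokine genes and of the tested genes of 10 pathway lists (vertical axis) in untreated HCC against healthy liver (left) and miR-22-treated against untreated HCC (right), with called genes in color, genes not called as open circles and the list median as a line. The median of the stress response targets is 1.44 on the left and -0.16 on the right, and that of the other secreted factors is -0.98 and 0.61.

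The other secreted factors of the liver fell in untreated HCC where they were called. Of 18 tested, none was called higher and 13 fell in untreated HCC, with a list median of -0.98 on the log2 scale, and 1 was higher at an unadjusted p under 0.05 by edgeR and none was called higher by DESeq2. With miR-22 against untreated HCC, 9 were higher and none was called lower, with 1 lower at an unadjusted p under 0.05 by edgeR and none called lower by DESeq2. Igf1, insulin-like growth factor 1, was at 1265 ± 72.2, 332 ± 54.3 and 843 ± 159 normalized CPM in the 3 groups (log2 -1.93 ± 0.16, adjusted p = 8.29e-07, and log2 1.35 ± 0.16, adjusted p = 2.16e-04). Hgfac, the activator of hepatocyte growth factor (log2 -1.82 and 0.90), Fetub, fetuin-B (log2 -2.12 and 1.21), and Gpld1, a secreted phospholipase (log2 -2.48 and 1.35), were called in both comparisons. The hepatocyte marker sum given above was lower in untreated HCC and intermediate with miR-22, as were these factors. Of the 9 members, Angptl6 and the Inhbc values (84.9 ± 12.5, 58.8 ± 15.2 and 76.7 ± 2.58) had group means in that same order, with Inhbc not called.

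Levels can be compared between genes only per length. Per kilobase of canonical transcript, the healthy-liver order of normalized CPM was Inhbc at 25.8 ± 3.78 (SD, n = 3), Angptl4 at 17.0 ± 2.68, Angptl6 at 10.8 ± 1.07, Inhbe at 7.78 ± 1.23, Fst at 6.47 ± 1.78, Inhba at 4.12 ± 1.21, Gdf15 at 1.67 ± 1.85, Fgf21 at 1.23 ± 0.815 and Inhbb at 0.216 ± 0.0486. Inhbe and Fst, Fst and Inhba, Inhba and Gdf15, and Gdf15 and Fgf21 were neighbors whose livers overlapped. In untreated HCC the first 4 were Inhbc at 17.9 ± 4.61, Inhbe at 16.7 ± 0.973, Inhba at 15.0 ± 1.27 and Fgf21 at 14.1 ± 1.98, neighbors whose livers overlapped, and Angptl6 was last at 2.80 ± 0.822, its livers overlapping those of Inhbb, the next above it. In miR-22-treated HCC Angptl4 was first at 48.1 ± 20.9, followed by Inhbc at 23.3 ± 0.785, whose range held Angptl4 of liver 2, and Inhbb was last at 1.78 ± 0.312. This order depends on the transcript taken. The canonical Inhbe transcript has 5319 bases in GENCODE, while the whole Inhbe locus in RefSeq has 2447 bases, with which its length-scaled level would be higher.

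**Figure D4:**
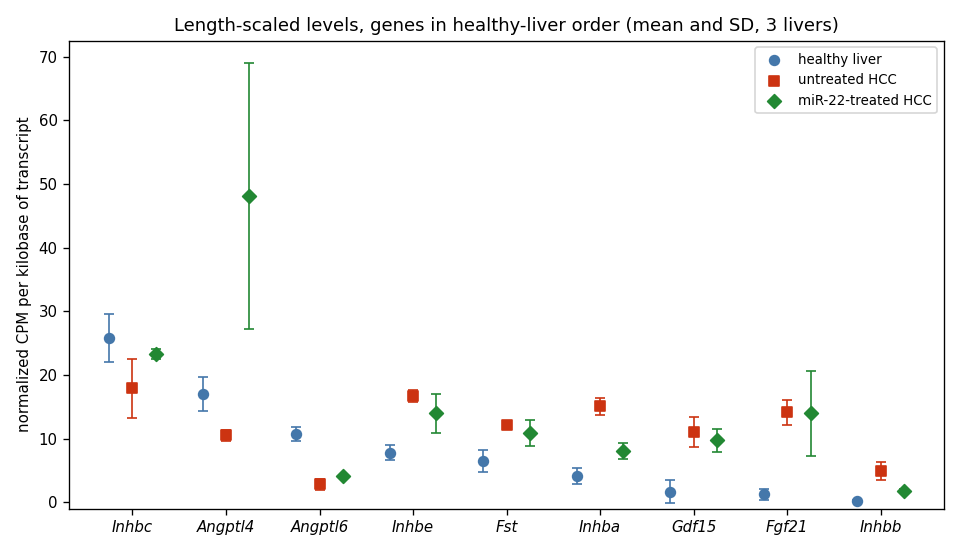
Normalized CPM per kilobase of canonical transcript (vertical axis, linear) of the 9 hepatokine genes in healthy-liver order (horizontal axis), as mean and SD of 3 livers per group. Angptl4 in miR-22-treated HCC stands highest at 48.1 with the widest whisker, and the points of untreated HCC lie between 2.80 and 17.9.

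The profile of each member over the 9 livers was set beside those of 15198 tested genes with a mean of at least 10 counts, by the Euclidean distance of standardized log2 CPM. The nearest were Nop56 for Inhba (distance 0.255), Clstn1 for Inhbb (0.213), Hsd17b6 for Inhbc (0.722), Rala for Inhbe (0.382), Atp13a2 for Fst (0.46), Chek2 for Fgf21 (0.403), Gstp-ps for Gdf15 (0.292), Mknk2 for Angptl4 (0.443) and Cpox for Angptl6 (0.275). The second nearest were Slc16a6, Frrs1, Npepl1, Nt5c, Zdhhc23, Abcc12, Pisd-ps1, Ndel1 and Btnl9 in the same order of members. The 9 points of a profile share 3 groups, and the distances are given as a description.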

How the data were processed

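RNA-seq of whole liver from 9 mice was analysed. Per the labels and the study's methods, libraries were made with a non-directional kit and sequenced as read pairs, and the authors quantified them with Salmon on GRCm39 and imported them per gene, with FastQC 0.11.7 and DESeq2 1.18 in the submitters' processing notes. The authors deposited these estimated counts per gene as whole numbers without normalization. The deposited signal values, the counts divided by a size factor per library, returned 100% of the deposited counts when multiplied by that factor and served for this check alone.

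The main test was the quasi-likelihood F test of edgeR 4.0.16 under R 4.3.3, two-sided, with TMM and filterByExpr, all 9 livers fitted together and no covariates, and it was tested on simulated data. Calls needed a fold change over 1.5 with an adjusted p under 0.05, and errors are SD over 3 livers or SE of the log2 fold change. The p-values measure the spread between these livers, and the labels say no more on how replicates were raised. The floor of 3 counts per library covers counting error only. Members were taken by symbol, 1 row each. Gene lists came from general knowledge, with Nars1 matched through a RefSeq synonym as Nars. The members and lists were chosen with earlier results of these data known. The genes named were the 9 members, their receptors and partners, up to 3 called genes of smallest p per list and comparison, and the 2 nearest profiles per member (log2 CPM, prior count 2). Some genes that this rule names are not reported here. Locations, transcript lengths and 3′ UTRs are from GENCODE on GRCm39, and promoters and the miRNA from RefSeq on GRCm38.p6, searched with Python 3.11.15, with figures by matplotlib 3.10.9. Alternatives were DESeq2 1.42.0, its size factors in edgeR, upper-quartile scaling, all genes with a count, at least 10 counts in total (added after seeing the data), at least 10 counts in every library, fits to the 2 groups compared, no fold threshold, a replicate block (with healthy liver, added after seeing the data), and each liver left out.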

Additional observations from a re-analysis of the deposited data

How the results depend on the processing

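Every call of the members in miR-22-treated against untreated HCC held with DESeq2, both other normalizations, at least 10 counts in every library, the fit to 2 groups, no fold threshold and the replicate block, and the number called was 3 to 5 when a liver was left out, 5 being without untreated HCC replicate 4, where Inhbc and Angptl6 joined. The log2 fold change of Fgf21 in that comparison ranged from -0.48 (without miR-22-treated HCC replicate 4) to 0.21 with a liver left out and was positive without untreated HCC replicate 2 (0.10), miR-22-treated HCC replicate 2 (0.21) and replicate 3 (0.14), never passing. In untreated HCC against healthy liver the Angptl4 call was lost under the settings given in the report, and 8 members called became 7 with DESeq2 or upper-quartile scaling, 6 with at least 10 counts in every library, 9 without a fold threshold, where Inhbc joined, and 7 or 8 with a liver left out. With at least 10 counts in every library, Fgf21 was not tested, since healthy liver 3 had 7 counts. The fit to all 29621 genes with a count made the same member calls, but it bears little on them: its prior degrees of freedom were infinite, against 6.42 in the main setting, so each gene took the variance of the trend in place of its own spread between livers (quasi-dispersion of Angptl4 0.679 against 3.92), and its p-values are too small. A filter of at least 10 counts in total, chosen after seeing the data, had prior degrees of freedom of 8.18 on 21471 genes and changed no member's call in any of the 3 comparisons.

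All genes called in miR-22-treated against untreated HCC numbered 2167 and went to 3777 without a fold threshold, to 958 with the replicate block, and to between 1433 (without miR-22-treated HCC replicate 3) and 2660 with a liver left out. In miR-22-treated HCC against healthy liver, 3772 became 5732 without a fold threshold, and the 50 genes called in the pathway lists became 33 with at least 10 counts in every library. Replicate numbers did not pair the HCC livers: same-numbered livers had correlations of -0.12, -0.13 and -0.24 of their deviations from group means, and the block changed no member's call. Healthy livers share only the numbers 2 and 3 with the HCC livers, and a replicate block over all 9 livers, added after seeing the data, kept 8 members called in each comparison with healthy liver with no change of a member's call. It moved the log2 fold change of Gdf15 from 2.73 to 4.25 in untreated HCC and from 2.56 to 4.08 in miR-22-treated HCC, and gave 5863 genes called in untreated HCC (6417 without it) and 3044 in miR-22-treated HCC.

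With 3 livers per group, the least precise member differences from healthy liver were those of Gdf15 (SE 0.48 on the log2 scale in untreated HCC) and Fgf21 (SE 0.42).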
